A study of Homo sapiens with 21 samples.

Results

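The genes described here are 7 members of the insulin and insulin-like growth factor (IGF) signaling system. They are the receptors INSR and IGF1R, the receptor substrates IRS1 and IRS2, the adaptor GRB10, and the binding proteins IGFBP3 and IGFBP5. They were chosen by name, and each was found among the 58735 genes of the deposited table. The data are 21 RNA-seq libraries of MDA-MB-453, a human breast cancer cell line of luminal type, 3 for each of 7 groups. Cells were left untreated as the control or given 10 mM calcium, 10 μM cadmium, 5 μM GSK4716 or 10 μM DES for 24 h, and in the last 2 groups DES was combined with either metal at these doses. The study is about the estrogen-related receptor ESRRB, for which its labels call GSK4716 an agonist and DES (diethylstilbestrol, a synthetic estrogen) an antagonist. In the combinations DES was added 3 h ahead of the metal, so exposure to DES may have been longer there than with DES alone. Calcium and GSK4716 were given without serum and cadmium in a low concentration of charcoal-stripped serum. Per the paper, GSK4716 and DES were in ethanol. The paper names both media for any treatment, and which of them the control and DES alone had is not stated. Medium and treatment therefore cannot be told apart in comparisons with these groups. The labels do not say whether replicates came from separate cultures.

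Insulin and the IGFs bind receptor tyrosine kinases, which phosphorylate the IRS proteins and so recruit PI3K, AKT and mTOR. AKT keeps the FOXO transcription factors out of the nucleus, where they drive genes of growth arrest and also genes of the receptors and substrates themselves. GRB10 and SOCS1 hold the receptors in check from inside the cell, while the IGFBP proteins bind the IGFs outside it. Breast cancer cells depend on this system for growth and survival to a varying degree.

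The deposited values are FPKM, the fragments on a gene per kilobase of its length, scaled by the size of the library. Between 14435925 and 28424805 fragments lay on genes in a library, with a median of 18314738. The 9 luminal epithelial markers summed here, among them KRT8, KRT18 and GATA3, had fragments in every library, and their summed level lay between 1726 and 5087 FPKM. Markers of fibroblasts, blood, endothelium and basal epithelium, 11 in all, summed to between 9.59 and 33.7 FPKM, nearly all of it COL1A1. Between 1 and 7 of these 11 were at 0 fragments in a library. Both metals left the marks looked for as a check of the labels, while no mark is given here for GSK4716 or DES. MT2A, which encodes a metal-binding metallothionein, lay between 1840 and 10180 FPKM in the 6 libraries with cadmium and at 1117 or below in the other 15. It was not high with cadmium alone: with DES alone it lay at 297, 336 and 792 FPKM, against 61.95 and 24.05 in control replicates 1 and 2. FOS, an early-response gene, lay between 88.4 and 276.7 FPKM in the 6 libraries with calcium and at 65.6 or below in the others.

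Some libraries stood apart from the others of their group. Control replicate 3 had 349 FPKM of the stress gene HMOX1, against 11.6 and 5.20 in the other control libraries, and GSK4716 replicate 3 had 1035. DES replicate 3 had fragments on 35112 genes, against 20363 and 22143 in the other DES libraries, and its COL1A1 was 32.7 FPKM, the highest of all 21. In cadmium replicate 1 the 10 G1/S genes (replication and cell cycle genes such as PCNA and MCM2) summed to 236 FPKM, against 99.4 and 43.6 in replicates 2 and 3. In DES with cadmium, replicate 2 had a G1/S sum of 71.3 FPKM, against 468 and 328. The library size behind the FPKM values was 0.693 times the fragments on genes in DES with cadmium replicate 1, the lowest ratio of the 21.

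Fold changes and tests come from limma on log2(FPKM + 0.1). The fit took in 14686 genes whose mean over the 21 libraries was at least 0.5 FPKM, and a gene was called at an adjusted p under 0.05 (two-sided). At low FPKM this scale makes a change look smaller than it is. Of the 7 members, 6 passed the filter on low values. IRS2, with a mean of 0.381 FPKM, did not, and its tests come from the same fit without the filter. With 3 libraries against 3, the smallest p that an exact permutation test allows is 0.10. In a bulk library, fewer cells with a transcript and less of it per cell cannot be told apart. The comparisons with the control share the same 3 control libraries.

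The 250 bases before the annotated start of a gene are shown for the members with the widest range between groups. They are read from RefSeq on GRCh38.p14, in the direction of transcription. Windows of 300 bases, from 250 before to 50 after the start, were found for all 7 members, 5 of them for GRB10. Both strands were searched for 5 motifs: the ERR half-site AAGGTCA, the FOXO motif GTAAACA, the insulin response element CAAAACA, the AP-1 motif TGANTCA and the E-box CACGTG. The insulin response element and the E-box were added to the search after the sequences had been read. These are held by 3.92%, 3.42%, 4.92%, 7.71% and 7.26% of 35116 such windows. IRS2 had 1 insulin response element on the opposite strand, in capitals, whose first base lies at position -40 from the start. IRS1 had 1 E-box at position 35, in a window not printed here. No other match was found in the members' windows, which says only that these letters are not there. The IRS2 window is chr13:109786584-109786833, that of GRB10 is chr7:50793463-50793703 and that of IGFBP3 is chr7:45921273-45921522, all on the minus strand. The RefSeq start of IGFBP3 used here differs from the start in the deposited table, at base 45921874. Its window therefore lies within the gene as the deposited table places it. GRB10 is cut to 241 bases where an exon of GRB10 begins.
IRS2: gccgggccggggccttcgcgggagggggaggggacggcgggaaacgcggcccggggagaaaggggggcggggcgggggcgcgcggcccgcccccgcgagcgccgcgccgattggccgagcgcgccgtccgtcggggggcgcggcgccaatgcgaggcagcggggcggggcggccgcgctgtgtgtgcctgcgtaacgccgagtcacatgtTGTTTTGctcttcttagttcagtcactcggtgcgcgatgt
GRB10: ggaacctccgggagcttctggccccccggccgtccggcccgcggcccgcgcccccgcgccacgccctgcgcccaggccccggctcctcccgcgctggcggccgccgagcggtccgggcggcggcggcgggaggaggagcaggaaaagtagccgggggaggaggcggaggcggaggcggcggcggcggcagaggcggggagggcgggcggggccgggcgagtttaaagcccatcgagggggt
IGFBP3: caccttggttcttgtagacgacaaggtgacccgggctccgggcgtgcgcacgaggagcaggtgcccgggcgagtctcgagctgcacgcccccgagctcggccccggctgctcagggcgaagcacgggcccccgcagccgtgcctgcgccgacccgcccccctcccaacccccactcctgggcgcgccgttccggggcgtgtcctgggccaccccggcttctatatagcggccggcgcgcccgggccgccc
G and C made up 76.4% of the IRS2 sequence, 81.7% of that of GRB10 and 76.0% of that of IGFBP3, against a median of 58.0% over all windows.

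INSR encodes the insulin receptor (ENSG00000171105, GRCh38 chromosome 19, 7112255 to 7294034, minus strand). Its level was 1.09, 1.30 and 1.27 FPKM in the control, 1.35, 1.10 and 1.21 with calcium, and 1.17, 1.21 and 1.26 with GSK4716. It was 0.684, 0.447 and 0.605 FPKM with cadmium, 0.677, 0.455 and 0.739 with DES, and 0.424, 0.380 and 0.621 with DES and calcium. These 9 libraries all lay below the 9 of control, calcium and GSK4716. DES with cadmium, at 0.857, 0.566 and 1.23 FPKM, overlapped both sets. In the order of group means, from control down through calcium, GSK4716, DES with cadmium, DES and cadmium to DES with calcium, each neighbouring pair overlapped. The transcript lay on 72 to 370 fragments a library.

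IGF1R encodes the type 1 IGF receptor (ENSG00000140443, chromosome 15, 98648539 to 98964530, plus strand). The control libraries held 1.77, 2.20 and 2.26 FPKM, the calcium libraries 1.58, 1.62 and 2.62, and those with GSK4716 1.78, 2.35 and 2.63. Cadmium gave 1.23, 1.80 and 1.51 FPKM. With DES the values were 0.790, 0.888 and 1.41, in the combination with calcium 1.04, 1.00 and 1.17, and in that with cadmium 0.517, 1.11 and 1.505. All 6 libraries of DES and of DES with calcium were thus below every library without DES, except that DES replicate 3 lay above cadmium replicate 1. Group means ran from 2.25 FPKM with GSK4716 to 1.03 with DES, and in that order the single pair of neighbours that did not overlap was cadmium and DES with calcium. The ratio of IGF1R to INSR, each in FPKM, was 1.69 ± 0.0856 in the control, 1.68 ± 0.442 with DES and 2.78 ± 1.15 with cadmium (SD, n = 3). It was 1.60 ± 0.515 with calcium, 1.85 ± 0.288 with GSK4716, 2.33 ± 0.389 with calcium added to DES and 1.26 ± 0.677 with cadmium added to DES. All 3 libraries with calcium added to DES were above the control, as were all 3 with cadmium alone. Those with cadmium added to DES lay on both sides of the control.

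IRS1, a docking protein of both receptors, was the more abundant substrate (ENSG00000169047, chromosome 2, 226731317 to 226799759, minus strand). Its control values were 7.69, 8.38 and 8.31 FPKM, and with calcium they were 17.7, 12.1 and 22.3. Cadmium gave 5.47, 11.3 and 8.98 FPKM, GSK4716 8.94, 7.81 and 8.56, and DES 5.01, 8.50 and 9.87. The values were 8.53, 13.2 and 7.30 FPKM with DES and calcium. DES with cadmium gave 1.71, 5.59 and 6.67. The calcium libraries were thus above those of every other group except DES with calcium, which overlapped them. Each neighbouring pair in the order of group means overlapped, from 17.4 FPKM with calcium to 4.66 with DES and cadmium.

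IRS2, the second substrate, was found at very low levels without DES (ENSG00000185950, chromosome 13, 109752698 to 109786568, minus strand). In the control it lay at 0.0304, 0.0291 and 0.0297 FPKM, from 8, 5 and 4 fragments. With DES it lay at 0.717, 1.64 and 3.40 FPKM, from 132, 250 and 459 fragments. When calcium was added to DES the values were 0.151, 0.193 and 0.494 FPKM, and when cadmium was added, 0.0917, 0.310 and 0.352. In the 9 libraries with calcium, cadmium or GSK4716 alone it lay between 0.0110 and 0.105 FPKM, from 2 to 16 fragments. So the 3 DES libraries were the highest of all 21, and each library with DES and calcium was below each with DES alone and above the 12 without DES. In DES with cadmium, replicate 1 lay within the range of the libraries without DES. Among neighbours in the order of group means, only DES and DES with calcium did not overlap. IRS2 made up 0.366% ± 0.0251 of the summed FPKM of IRS1 and IRS2 in the control and 18.1% ± 6.78 with DES (SD, n = 3). That share was 3.18% ± 2.74 when calcium was added to DES and 5.12% ± 0.122 when cadmium was added.

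GRB10, an adaptor that binds the activated receptors and dampens their signal, was found at 1.40, 0.884 and 1.46 FPKM in the control (ENSG00000106070, chromosome 7, 50590063 to 50793462, minus strand). With calcium it lay at 3.50, 2.10 and 4.15 FPKM, with cadmium at 2.56, 4.98 and 6.62, and with GSK4716 at 2.55, 2.63 and 2.87. The 9 libraries given calcium, cadmium or GSK4716 without DES were all above the control. With DES alone the values were 1.23, 1.27 and 1.56 FPKM, in its combination with calcium 1.47, 1.18 and 1.498, and in that with cadmium 2.01, 2.36 and 1.507. Cadmium, calcium and GSK4716 overlapped in this order, as did DES with calcium, DES and control below them. DES with cadmium overlapped neither its upper neighbour GSK4716 nor, by 1.507 against 1.498 FPKM, its lower neighbour DES with calcium. GRB10 belongs to the genes that the study lists as raised in common by calcium, cadmium and GSK4716, chosen on these libraries, so its direction there is not independent evidence.

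IGFBP3, the main carrier of IGFs in blood and also a growth inhibitor made by many cells, differed widely between control libraries (ENSG00000146674, chromosome 7, 45912245 to 45921874, minus strand). It lay at 35.6, 33.8 and 8.06 FPKM in the control. The values were 4.89, 6.86 and 6.01 FPKM with calcium, 8.22, 4.75 and 2.08 with cadmium, and 6.89, 4.39 and 2.19 with GSK4716. With DES they were 19.1, 14.5 and 18.2 FPKM, with calcium added to DES 23.8, 13.4 and 24.9, and with cadmium added 19.2, 4.23 and 21.5. Apart from control replicate 3 and DES with cadmium replicate 2, each library of control and of the groups with DES was above each of the 9 with calcium, cadmium or GSK4716 alone. In the order of group means, from 25.8 FPKM in the control to 4.49 with GSK4716, every neighbouring pair overlapped. The study lists IGFBP3 among the genes lowered in common by the same 3, again chosen on these libraries.

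IGFBP5, a binding protein known for its part in the involution of the mammary gland, was the most abundant member, above 98.7% of detected genes in its mean level (ENSG00000115461, chromosome 2, 216672105 to 216695525, minus strand). Its range was 59.5 to 125.5 FPKM in the control, 93.2 to 150.2 with GSK4716, 84.4 to 135.6 with cadmium and 46.2 to 72.7 with calcium. With DES it was 37.0 to 67.4 FPKM, with calcium added to DES 21.9 to 60.9, and with cadmium added 47.3 to 66.2. Neighbours in the order of group means, from GSK4716 at 120.0 FPKM to DES with calcium at 40.7, overlapped throughout. The 6 libraries of cadmium and GSK4716 were nonetheless all above the 12 of calcium and of the groups with DES.

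**Figure D1:**
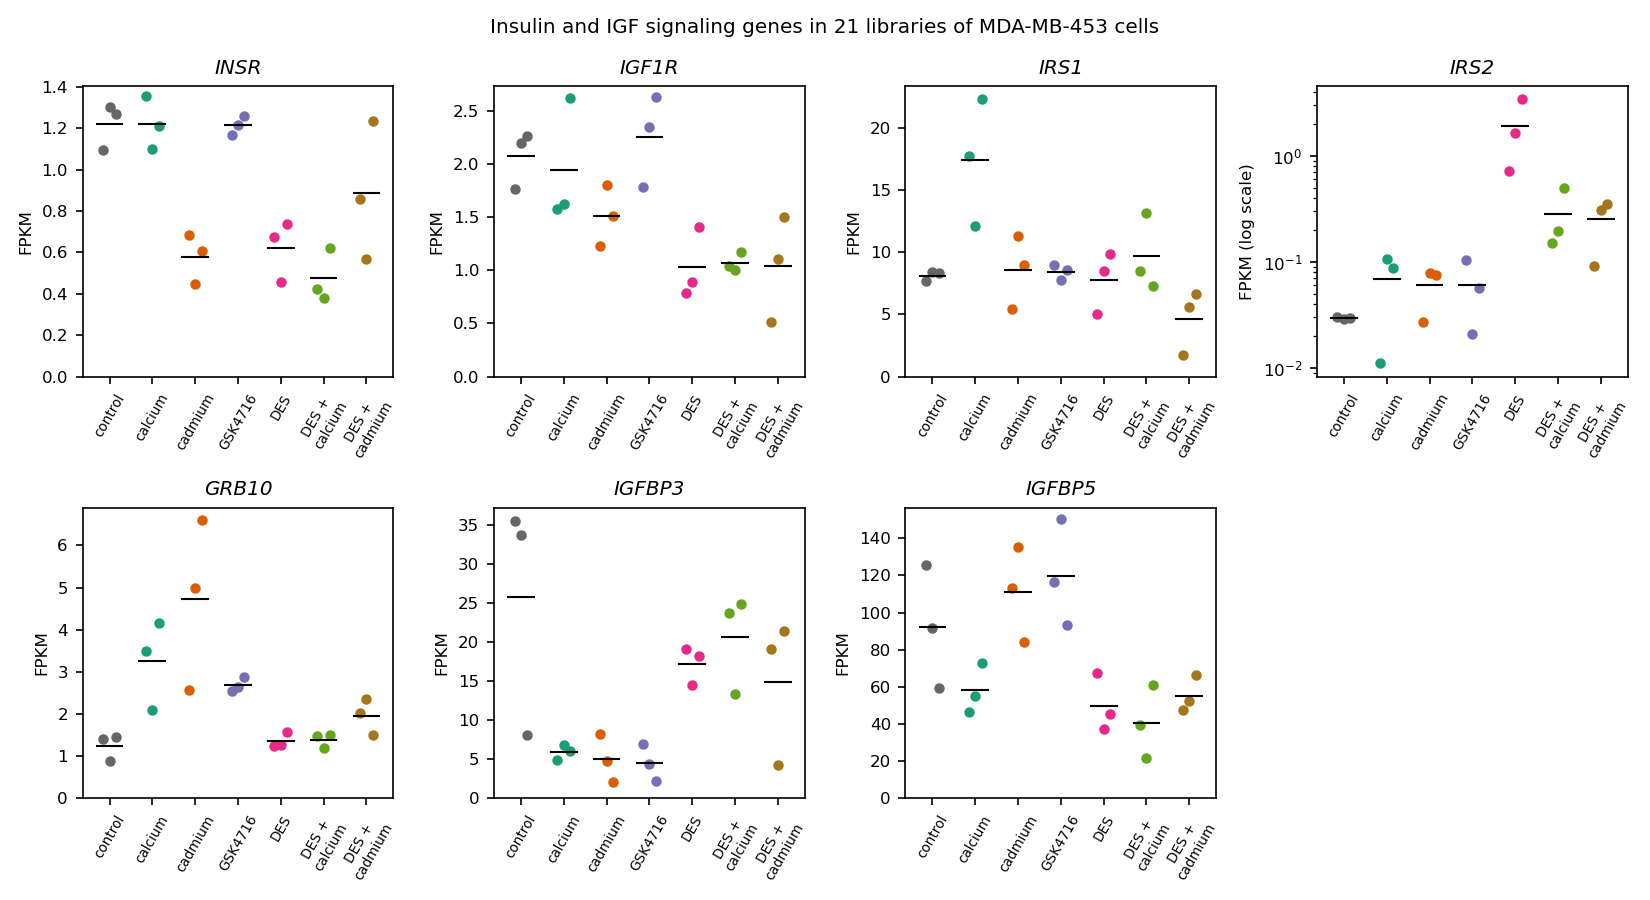
FPKM of the 7 genes in each of the 21 libraries, by group; points are libraries and bars are group means of 3, and the axis is a log scale for IRS2. IRS2 lies between 0.717 and 3.40 FPKM with DES alone and at 0.494 or below in all other libraries.

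Calcium was compared with the control to ask what the metal did without an ERR blocker. In the fit IRS1 was 2.06-fold and GRB10 2.45-fold as high as in the control, and IGFBP3 was lower, with a log2 fold change of -1.85 ± 0.58 (SE, n = 3). For these 3 of the 6 tested members the calcium and control libraries did not overlap, which held for 29.6% of all genes tested. None passed the limma test, in which 7.12% of all genes were called. The log2 fold change was 1.04 ± 0.23 for IRS1 (adjusted p = 0.0512) and 1.29 ± 0.33 for GRB10 (adjusted p = 0.0739), and the adjusted p was 0.122 for IGFBP3. At an unadjusted p under 0.05 the count was 3 of 6, beside 23.5% of all genes, and limma-voom on the fragments called the same 3, beside 10.6%. IGFBP3 was called without control replicate 3 (log2 fold change -2.54, adjusted p = 0.0202), and IRS1 without calcium replicate 2 (1.28, adjusted p = 0.0372), where 5.01% and 1.94% of all genes were called. The share of all genes hung on single libraries. It was 0.0477% (7 genes) without control replicate 1, 0.313% without control replicate 2, 2.43% without calcium replicate 1 and 5.16% without calcium replicate 3. The mitochondrial share of fragments, 4.88% to 7.55% with calcium, was below the 7.70% to 8.19% of the control, and 2 of the 9 luminal markers rose with calcium. Their part in these differences was not tested. For INSR, IGF1R and IGFBP5 the log2 fold changes were 0.00, -0.12 and -0.63, with overlapping groups.

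Cadmium was set against the same control. GRB10 was 3.41-fold as high (log2 fold change 1.77 ± 0.39, SE, n = 3, adjusted p = 0.0817) and INSR 0.509-fold (-0.97 ± 0.25, adjusted p = 0.0958), each with groups that did not overlap. IGFBP3 had a log2 fold change of -2.27 ± 0.73 (adjusted p = 0.130), and its cadmium replicate 1, at 8.22 FPKM, lay just above control replicate 3. The limma count of called members was 0 of 6, where 0.15% of all genes were called, or 22 genes. At an unadjusted p under 0.05 it was 3, beside 25.9% of all genes, and limma-voom called 1, GRB10, beside 3.15%. That 2 of 6 did not overlap stands beside 34.4% of all genes. Without cadmium replicate 1, GRB10 was called (2.15, adjusted p = 0.0298), beside 10.9% of all genes (1605). Without any other of the 6 libraries, 1 to 9 genes were called.

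GSK4716, the ESRRB agonist of the study, gave a fitted level of GRB10 2.11-fold the control (log2 fold change 1.08 ± 0.22, SE, n = 3, adjusted p = 0.155). IGFBP3 was 0.194-fold the control (-2.37 ± 0.69, adjusted p = 0.204). These 2 of 6 did not overlap, where 22.1% of all genes did not. Limma called 0 members and 0% of all genes, that is 0 genes. At an unadjusted p under 0.05 there were 2 members and 2404 genes (16.4%), and limma-voom called 1 member, GRB10 (adjusted p = 0.0487), and 86 genes (0.586%). The log2 fold changes of INSR, IGF1R, IRS1 and IGFBP5 lay between -0.01 and 0.42. The mitochondrial share of fragments was 8.20% to 8.84% with GSK4716 and 7.70% to 8.19% in the control, and its part in these differences was not tested.

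DES alone was compared with the control to give the effect of the antagonist. IGF1R fell by 0.98 ± 0.29 on the log2 scale (SE, n = 3, adjusted p = 0.0422), to 0.508-fold, and was lower in 3 of 3 libraries than in any control. It was the single member called of 6, beside 29.6% of all genes, so a count of 1 is no more than the share of all genes. The count at an unadjusted p under 0.05 was 3, beside 43.2% of all genes, and limma-voom called 2, IGF1R and INSR, beside 32.3%. The share of all genes called by limma was 13.1% without control replicate 1, 14.5% without control replicate 2 and 16.6% without DES replicate 2, and 19.9% to 34.6% without any other library. INSR was 0.540-fold (log2 fold change -0.89 ± 0.30, adjusted p = 0.0627), also without overlap. INSR was called with total scaling (-1.05, adjusted p = 0.0423), with all 7 groups in one fit (0.0344), with limma-voom (0.0164) and, chosen after the values were seen, with genes of at least 10 fragments by limma (0.0437) and limma-voom (0.0170). IGF1R and INSR, the 2 of 6 without overlap, stand beside 48.8% of all genes that did not overlap. The IGF1R call was lost in 5 of the 6 fits that left out a library, with log2 fold changes of -1.08 to -0.824 in those 5. It was lost too with the replicate block (adjusted p = 0.0706) and without the filter (adjusted p = 0.140), both at -0.977. IGFBP5 had a log2 fold change of -0.87 ± 0.33 (adjusted p = 0.0866) and IGFBP3 one of -0.31 ± 0.54. IGFBP5 was called with total scaling (-1.04, adjusted p = 0.0454), without control replicate 3 (-1.15, adjusted p = 0.0490) and without DES replicate 1 (-1.11, adjusted p = 0.0418). Without control replicate 3, IGFBP3 was called as lower with DES (-1.01, adjusted p = 0.0197). The mitochondrial share of fragments was 7.70% to 8.19% in the control, 3.47% to 4.96% with DES, 4.34% to 5.17% with calcium added and 1.97% to 5.31% with cadmium added, and 2 of the 9 luminal markers fell with DES. Their part in these differences was not tested.

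IRS2 rose with DES by 3.72 ± 0.57 on the log2 scale in the fit without the filter (SE, n = 3, adjusted p = 0.0480), with 3 of 3 libraries above all controls, where 2.92% of all 58735 genes were called. A pair of settings chosen after the values were seen, both with genes of at least 10 fragments on average, gave an adjusted p of 0.00169 with limma and of 0.00619 with limma-voom. On the fragments, limma-voom put the log2 fold change at 5.54 ± 1.11. Without DES replicate 3, the library with the most IRS2, the fit without the filter gave 3.20 (adjusted p = 0.0817). The call was lost in 5 of the 6 fits that left out a library, with adjusted p-values up to 0.183 and log2 fold changes of 3.20 to 3.72 in those 5. It was lost too with the replicate block added to the fit without the filter (3.72, adjusted p = 0.221), a setting chosen after the values were seen.

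Adding a metal to DES was compared with DES alone. Neither calcium nor cadmium gave a called member of the 6 tested (limma, and 0 by limma-voom and at an unadjusted p under 0.05, where 13.2% and 10.4% of all genes lay). Of all genes, 0.136% were called on adding calcium and 0.266% on adding cadmium. Limma-voom called 0 genes in both, as did limma with the replicate block. With a library left out, limma called 0 to 41 genes on adding calcium and 0 to 96 on adding cadmium. Groups overlapped for all 6 members in both comparisons, where 19.9% and 16.2% of all genes did not overlap. IRS2 was lower than with DES alone in 3 of 3 libraries in both, with log2 fold changes of -2.28 ± 0.65 for calcium (adjusted p = 0.851) and -2.38 ± 0.66 for cadmium (adjusted p = 0.921) in the fit without the filter. With genes of at least 10 fragments, chosen after the values were seen, these p-values were 0.203 and 0.229, and limma-voom gave -2.67 and -2.79 (adjusted p = 0.219 and 0.398). Between libraries of equal replicate number the log2 differences of IRS2 were -1.70, -2.57 and -2.56 for calcium and -2.09, -2.08 and -2.96 for cadmium. A fit without the filter and with the replicate block, also chosen after the values were seen, gave adjusted p-values of 0.800 and 0.655 and unadjusted ones of 0.00396 and 0.00376. IRS2 was not called in these settings, and the block was not tried with the filter of 10 fragments.

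DES with calcium was then compared with calcium alone, to ask what the antagonist did in the presence of the metal. Both groups received calcium, and the medium was the same as far as the labels tell. IGFBP3 rose by 1.75 ± 0.27 on the log2 scale (SE, n = 3, adjusted p = 0.00542), 3.36-fold, and was higher in 3 of 3 libraries. GRB10 fell by 1.13 ± 0.31 (adjusted p = 0.0310), to 0.457-fold, and INSR fell by 1.22 ± 0.33 (adjusted p = 0.0297), to 0.430-fold, each in 3 of 3 libraries. These 3 called members of 6 stand beside 35.1% of all genes called (22.2% without replicate 1 of DES with calcium, and 23.8% to 29.0% without any other library), and the 4 of 6 without overlap, IGF1R being the other, beside 50.8%. The count at an unadjusted p under 0.05 was 5, beside 46.8% of all genes, and limma-voom called 5, beside 39.2%. With IGF1R the log2 fold change was -0.77 ± 0.30 (adjusted p = 0.0873), and with IRS1 -0.84 ± 0.30 (adjusted p = 0.0718). The IGFBP3 call held in all 6 fits that left out a library, while GRB10 lost its call in 5 and INSR in 5. The fit without the filter called none of the 3, with adjusted p-values of 0.0963, 0.203 and 0.0773 for IGFBP3, GRB10 and INSR. For INSR the adjusted p was 0.0556 with the replicate block.

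DES with cadmium against cadmium alone gave 0 called members of 6 (limma), where 9.89% of all genes were called. That share was 0% without any 1 of the 3 cadmium libraries or without replicate 3 of DES with cadmium, 4.60% without its replicate 2 and 7.16% without its replicate 1. With the replicate block it was 0%, and without the filter 0.0885%. At an unadjusted p under 0.05 the count was 2, IGFBP5 and GRB10, beside 32.6% of all genes, and limma-voom called 0, beside 12.3%. In both genes the groups did not overlap, 2 of 6 beside 40% of all genes. GRB10 had a log2 fold change of -1.15 ± 0.42 (SE, n = 3, adjusted p = 0.115) and IGFBP5 one of -0.99 ± 0.26 (adjusted p = 0.0595). The log2 fold change of INSR was 0.50 ± 0.43, with overlapping groups. The mitochondrial share of fragments was 7.36% to 9.75% with cadmium and 1.97% to 5.31% with DES and cadmium, and its part in these differences was not tested. In the fit without the filter, IRS2 was higher in 3 of 3 libraries with DES in the presence of each metal, by 1.12 ± 0.47 with calcium (adjusted p = 0.501) and 1.05 ± 0.58 with cadmium (adjusted p = 0.652). With genes of at least 10 fragments the adjusted p-values were 0.0811 and 0.127 by limma, and limma-voom gave 2.28 and 1.94 (adjusted p = 0.0674 and 0.145).

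**Figure D2:**
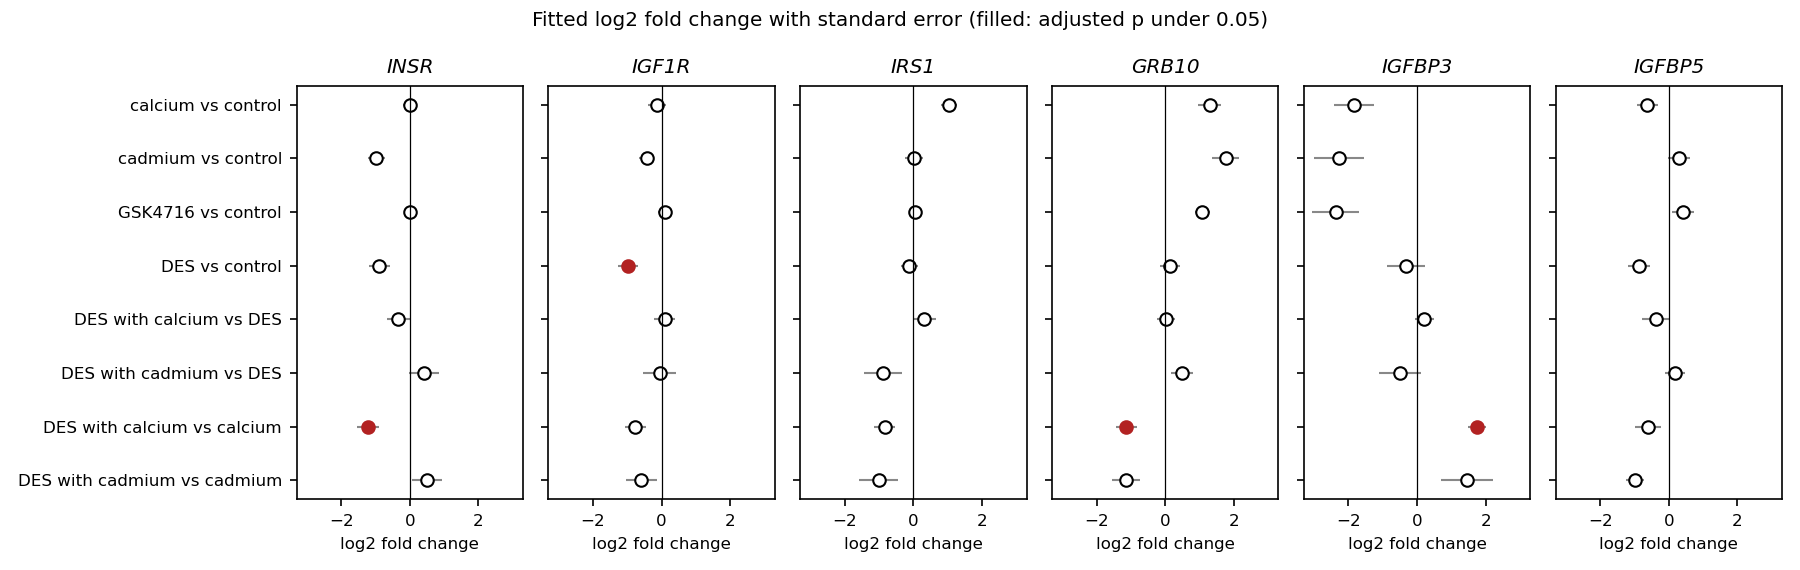
Fitted log2 fold change with its standard error for the 6 members that passed the filter, in 8 comparisons of 3 libraries with 3; filled points have an adjusted p under 0.05. The 4 filled points are IGF1R with DES and INSR, GRB10 and IGFBP3 with DES and calcium against calcium.

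Whether a metal acted differently in the presence of DES was tested by an interaction term. It gave 0 called members of 6 for calcium, beside 3.63% of all genes, and 0 for cadmium, beside 1.18% (limma, and 0 by limma-voom in both, beside 4.32% and 0.783%). At an unadjusted p under 0.05 the counts were 2 and 2, beside 19.9% and 18.5% of all genes. For calcium the term was 2.06 ± 0.67 for IGFBP3 (SE, log2 scale, adjusted p = 0.111) and -1.26 ± 0.41 for GRB10 (adjusted p = 0.114). For cadmium it was 1.77 ± 1.01 and -1.28 ± 0.50 (adjusted p = 0.371 and 0.199), and INSR had 1.39 ± 0.50 (adjusted p = 0.176). IRS2 had -2.60 ± 0.77 and -2.66 ± 0.74 in the fit without the filter (adjusted p = 0.330 and 0.288). With genes of at least 10 fragments the adjusted p-values were 0.0576 and 0.0712 by limma, and limma-voom gave -3.25 and -3.60 (adjusted p = 0.307 and 0.237). So no term of a member was called with all libraries, which does not show that the effects were alike. Without control replicate 3 the calcium term of IGFBP3 was 2.76 and was called (adjusted p = 0.00616), beside 3.94% of all genes. With a library left out, the share of all genes was 1.23% to 5.65% for calcium and 0.102% to 2.79% for cadmium.

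The level of IGFBP3 was mostly high in libraries where that of the G1/S genes was high, and GRB10 was mostly high where they were low. The 10 G1/S genes summed to 392 ± 112 FPKM (SD, n = 3) in the control, against 162 ± 25.8 for GSK4716, 118 ± 17.4 for calcium and 126 ± 99.1 for cadmium. With DES alone they summed to 299 ± 48.2 FPKM, with calcium added to 313 ± 96.9 and with cadmium added to 289 ± 201. Of the 10 genes, 9 fell with calcium against the control, where 2.53% of all genes fell, and 8 rose with DES and calcium against calcium, where 18.5% of all genes rose. PCNA, MCM6, MCM7, CDC6, CCNE2 and TYMS of these 10 are on the study's list of genes lowered in common by calcium, cadmium and GSK4716. That list, which also holds IGFBP3, and the list of raised genes, which holds GRB10, were chosen on these libraries. The shared pattern over these groups is therefore not independent evidence. With cadmium and with GSK4716 against the control 0 of 10 were called (limma), beside 0.15% and 0% of all genes. An unadjusted p under 0.05 was found for 10 and 10, beside 25.9% and 16.4%. Limma-voom with at least 10 fragments called 0 and 5, beside 4.14% and 0.575%. With DES and cadmium against cadmium these 3 counts were 0, 0 and 0 (9.89%, 32.6% and 12.1% of all genes). With DES against the control they were 1, 1 and 1 (29.6%, 43.2% and 31.1%). For the calcium interaction they were 5, 9 and 9 (3.63%, 19.9% and 4.25%), and for the cadmium interaction 0, 0 and 0 (1.18%, 18.5% and 0.522%). In the library of DES with cadmium in which IGFBP3 was 4.23 FPKM, replicate 2, the sum was 71.3 FPKM. Control replicate 3 and cadmium replicate 1 were exceptions, with 8.06 and 8.22 FPKM of IGFBP3 at sums of 291 and 236, and the latter had 2.56 FPKM of GRB10. Replicate 1 of DES with cadmium was an exception for GRB10, at 2.01 FPKM with a sum of 468. DES replicates 2 and 3 and replicate 2 of DES with calcium, at sums of 263, 281 and 206, had 14.5, 18.2 and 13.4 FPKM of IGFBP3 and 1.27, 1.56 and 1.18 of GRB10. The part of cell cycle in the IGFBP3 and GRB10 differences was not tested.

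**Figure D3:**
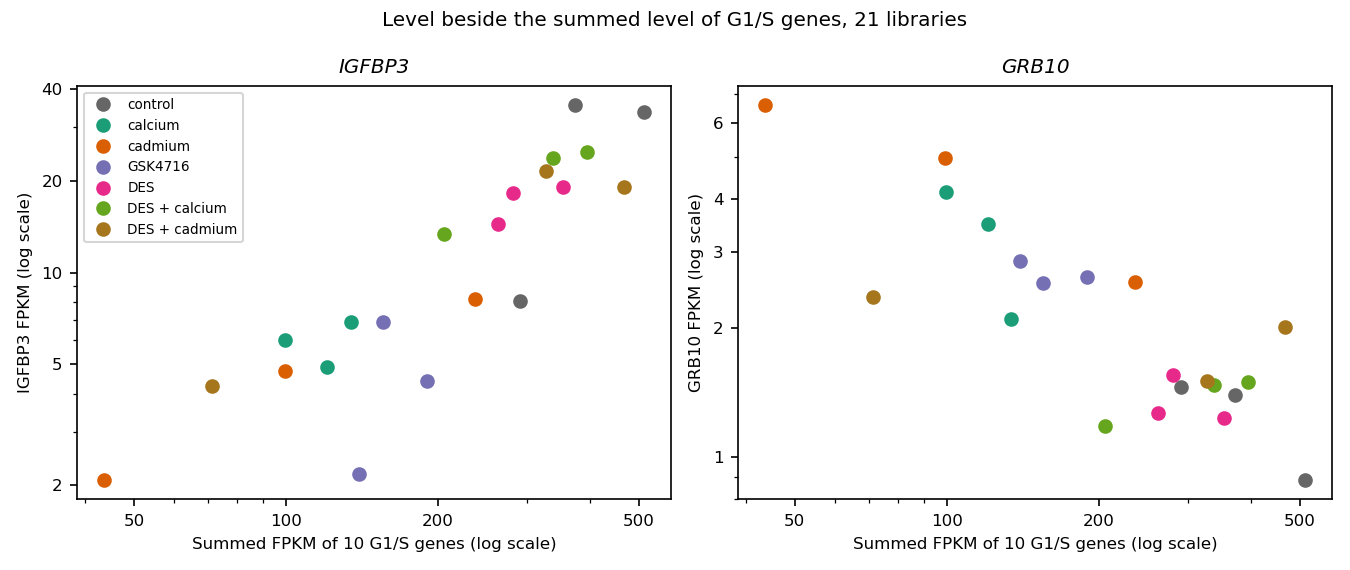
IGFBP3 and GRB10 in FPKM against the summed FPKM of 10 G1/S genes in the same 21 libraries, all axes on a log scale, with 1 point for each library. DES with cadmium replicate 2, at a G1/S sum of 71.3 FPKM, has 4.23 FPKM of IGFBP3, near the libraries with a metal or GSK4716 alone.

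The genes most like each of the 6 tested members were sought among 12245 genes, by Pearson's r of log2(FPKM + 0.1) over the 21 libraries, which share their 7 treatments. For IGFBP3 they were NASP, POLA1 and DNMT1 (r = 0.905, 0.897 and 0.887). For GRB10 they were HIST1H4H, NOS3 and ITSN1 (0.929, 0.887 and 0.872). IRS1 was most like CD58, MEX3C and YAP1 (0.864, 0.846 and 0.845), and INSR most like RARG, ORAI3 and KIF1BP (0.884, 0.879 and 0.879). SMURF2, STYX and BMPR2 led for IGF1R (0.915, 0.914 and 0.898), and THRB, CHST1 and HEATR5B for IGFBP5 (0.865, 0.853 and 0.844). For IRS2, which did not pass the filter on low values, they were MARK2P8, KLHL11 and RBM15 (0.927, 0.922 and 0.920). NASP, POLA1 and DNMT1 are genes of chromatin assembly, DNA synthesis and DNA methylation at replication.

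The ligands themselves were barely detected in these libraries. INS had 0 fragments in all 21 libraries, which allows up to 3 fragments in each by counting error alone. IGF1 and both table entries named IGF2 lay at 0.0359 FPKM or below in every library. IGF1 had 0 fragments in each control and calcium library and at most 3 with cadmium. The paper reports from qPCR, a different assay, that both metals raised IGF1 in this cell line and that DES blocked the rise. Fragments this few cannot show whether IGF1 changed. Of the other binding proteins, IGFBP2 lay between 17.0 and 73.5 FPKM and IGFBP4 between 1.91 and 10.1 FPKM. IGFBP1, IGFBP6 and IGFBP7 were at 0.551 FPKM or below in every library.

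A further 84 genes of the pathway, in 8 lists, were counted beside the members, and 66 of them passed the filter. With calcium 4 of the 66 were called, 3 higher and 1 lower (6.06%, beside 7.12% of all genes). STC1, an inhibitor of the protease that frees IGFs from their binding proteins, went from 1.70, 4.45 and 1.01 FPKM to 8.06, 25.9 and 19.4 and rose by 2.95 ± 0.64 on the log2 scale (SE, n = 3, adjusted p = 0.0499). FOXO1 rose by 1.53 ± 0.25 (adjusted p = 0.0260) and its target FBXO32, a ubiquitin ligase of atrophy, by 1.18 ± 0.17 (adjusted p = 0.0204). DDIT4, an mTOR inhibitor, fell by 0.97 ± 0.12 (adjusted p = 0.0150). All 4 were on one side of the control in 3 of 3 libraries. The mitochondrial share was 4.88% to 7.55% with calcium and 7.70% to 8.19% in the control, and 2 of the 9 luminal markers rose. The part of both was not tested. Between 0 and 3 of the 66 were called when a library was left out (0.0477% to 5.16% of all genes), and 0 to 11 in 10 other settings (0.0511% to 11.5%). The STC1 call was lost in all 6 fits that left out a library, those of FOXO1 and FBXO32 in 4 each and that of DDIT4 in 3. Of the 10 other settings, STC1 lost its call in 4, and FOXO1, FBXO32 and DDIT4 in 2 each. With cadmium and with GSK4716, 0 of the 66 were called (limma), 17 and 15 had an unadjusted p under 0.05, beside 25.9% and 16.4% of all genes, and limma-voom called 4 and 0, beside 3.15% and 0.586%. In 10 other settings 0 to 5 were called with cadmium (0.0204% to 6.99% of all genes) and 0 with GSK4716 (0% to 0.586%). Leaving out cadmium replicate 1 gave 10 called with cadmium, where 10.9% of all genes were called, and leaving out any other library gave 0 in both.

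With DES 29 of the 66 were called, 12 higher and 17 lower (43.9%, beside 29.6% of all genes). SOCS1, an inhibitor of receptor and cytokine signals that binds the insulin receptor and IRS proteins, had 2.58, 2.08 and 3.07 FPKM in the control and 32.2, 37.3 and 56.3 with DES. It rose by 3.95 ± 0.25 on the log2 scale, 15.4-fold (SE, n = 3, adjusted p = 0.000295). FOXO1 went from 2.27, 1.80 and 2.27 FPKM to 7.10, 13.1 and 9.53 and rose by 2.14 ± 0.26 (adjusted p = 0.00228). CITED2, a FOXO target, rose by 1.61 ± 0.16 (adjusted p = 0.00135). The PI3K subunit gene PIK3R3 fell by 1.97 ± 0.30 (adjusted p = 0.00484), and the Ras activators SOS1 and SOS2 fell by 1.82 ± 0.24 and 1.44 ± 0.25 (adjusted p = 0.00314 and 0.00747). Between 17 and 31 of the 66 were called when a library was left out (13.1% to 34.6% of all genes), and 17 to 29 in 10 other settings (2.92% to 33.2%). These 6 calls held in all 6 such fits, and those of PIK3R3 and SOS2 were each lost in 1 of 10 other settings. As said for the members, the mitochondrial share was 3.47% to 4.96% with DES and 7.70% to 8.19% in the control. Of the 9 luminal markers 2 fell, and the part of both was not tested.

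Of all genes, 16.7% rose and 12.9% fell with DES. By list, 6 of the 13 tested FOXO factors and targets rose with DES and 0 fell (median log2 fold change 0.78, where that of all genes was 0.05). Of 13 PI3K and AKT genes 1 rose and 6 fell (median -0.54), and of 10 receptor inhibitors 2 rose and 4 fell (median -0.53). Of 11 adaptors 1 rose and 3 fell (median -0.13), and of 14 genes of the mTOR branch 2 rose and 3 fell (median -0.09). Of 4 IGF-binding genes 0 were called (median 0.04). IGF2R, which clears IGF2 from the cell surface and was the single tested gene of its list, fell by 1.30 on the log2 scale. Scaling to the total fragments on genes moved the median of all genes to -0.12 in this comparison, and to -0.13 with calcium against control.

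With DES and calcium against calcium, 28 of the 66 were called, 12 higher and 16 lower (42.4%, beside 35.1% of all genes). DEPTOR, a subunit that restrains mTOR, rose by 2.53 ± 0.49 on the log2 scale (SE, n = 3, adjusted p = 0.0101), SOCS1 by 1.48 ± 0.40 (adjusted p = 0.0303) and the adaptor NCK1 by 1.38 ± 0.37 (adjusted p = 0.0285). IGF2R fell by 1.86 ± 0.21 (adjusted p = 0.00239), the AKT phosphatase gene PHLPP2 by 1.58 ± 0.27 (adjusted p = 0.00670) and PIK3R3 by 1.56 ± 0.24 (adjusted p = 0.00516). In 10 other settings 6 to 34 of the 66 were called (1.71% to 44.8% of all genes). With a library left out 14 to 22 were called (22.2% to 29.0%), and in these fits the SOCS1 call was lost in 5 of 6 and that of NCK1 in 3. In the 10 other settings SOCS1 lost its call in 2, and DEPTOR, NCK1 and PIK3R3 in 1 each. PHLPP2 lost its call in 1 of the 9 settings that held it. Against cadmium, 6 of the 66 were called with DES and cadmium, 1 higher and 5 lower (9.09%, beside 9.89% of all genes). GSK3A rose by 1.19 ± 0.24 (adjusted p = 0.0397), and IGF2R fell by 1.72 ± 0.30 (adjusted p = 0.0321), with PDPK1, the kinase that activates AKT, at -1.61 and CRK at -1.59. Here too the mitochondrial share, 8.83% with cadmium and 3.46% with DES and cadmium on average, did not overlap, and its part was not tested. In 10 other settings 0 to 23 were called, where the share of all genes ran from 0% (replicate block) to 37.2% (all 7 groups in one fit). GSK3A lost its call in 3 of these settings, and IGF2R, PDPK1 and CRK in 2 each. With a library left out 0 to 4 were called (0% to 7.16% of all genes). The GSK3A call was then lost in 5 of 6 fits and those of IGF2R, PDPK1 and CRK in 4 each. Total scaling moved the median of all genes to -0.20 and -0.39 in these comparisons. Adding calcium or cadmium to DES gave 0 of 66 called against DES alone (limma), with 11 and 7 at an unadjusted p under 0.05, beside 13.2% and 10.4% of all genes, and 0 by limma-voom. In 10 other settings up to 2 and 3 were called (up to 1.13% and 4.11% of all genes), and total scaling put the medians of all genes at -0.13 and -0.24.

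**Figure D4:**
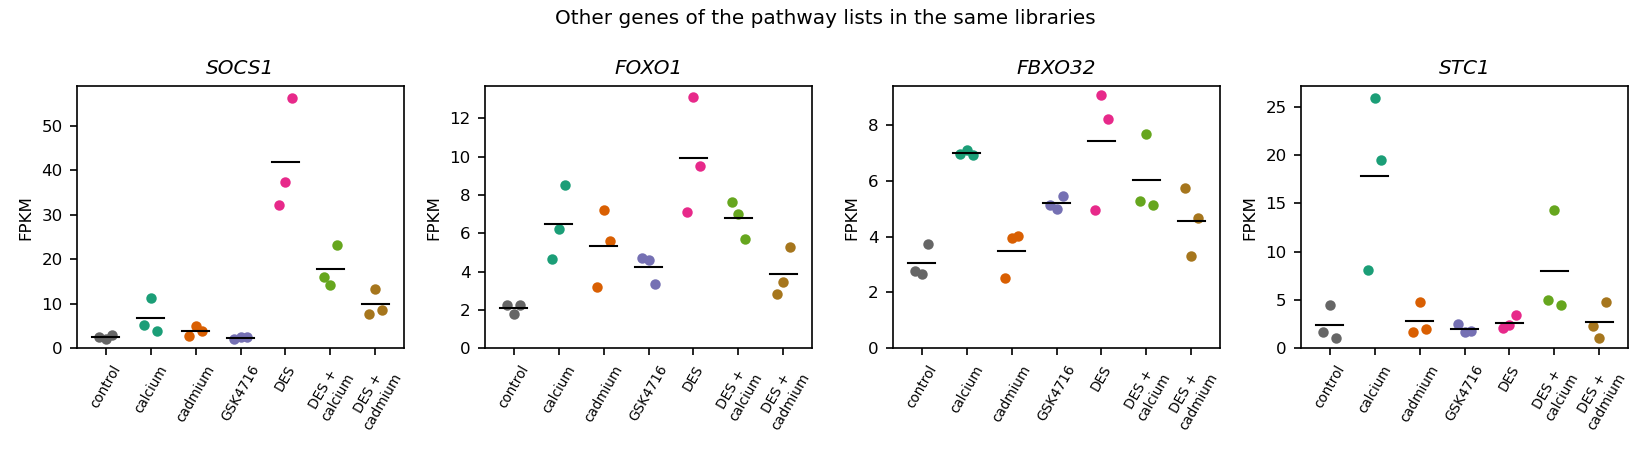
FPKM of SOCS1, FOXO1, FBXO32 and STC1 in each of the 21 libraries, by group; points are libraries and bars are group means of 3. SOCS1 lies between 32.2 and 56.3 FPKM with DES alone and at 23.3 or below elsewhere.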

How the data were processed

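Per the labels, poly-A RNA of MDA-MB-453 cells was sequenced, and the paper states that total RNA was isolated. The authors deposited FPKM per gene and library. The submitters' notes name HISAT2 2.0.5, featureCounts 1.5.0-p3 and GRCh38.p14, with no roles. Strandedness is stated both ways (dUTP or dTTP), so genes that overlap others are uncertain. FPKM times length, divided by its step, gave whole fragments (within 0.1) for 100% of values.

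R 4.3.3 with limma 3.58.1 (lmFit, eBayes with a trend) was fitted to log2(FPKM + 0.1) of the groups compared, without covariates, with Benjamini-Hochberg adjustment over all genes tested. The steps were tested on simulated data. Members and lists were chosen with earlier results of these data known. Named genes of other lists are, per comparison, up to 3 called rises and 3 falls with a mean of at least 1 FPKM, the ligands and the IGFBP genes. IGF2R with DES alone was named after its values were seen. IGF2 and SOD2 each have a pair of entries in the table.

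Alternatives were a pseudocount of 1, no filter, a mean of at least 2 FPKM, median-ratio and total scaling, all 7 groups in one fit, a replicate block, limma-voom and each library left out. The fit without a filter took in all 58735 genes, also those at 0 throughout. Filters on at least 10 fragments, and for IRS2 the replicate block without a filter, were added after the values were seen. Libraries with the same replicate number deviated together (every correlation above 0.1) with DES and calcium or cadmium against DES, and not in the other 6 comparisons.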

Additional observations from a re-analysis of the deposited data

Results flagged for a closer look

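In 5 cases among the other pathway genes, a metal acted differently with DES than without by the interaction test itself (limma, adjusted p under 0.05). SOCS1 had a mean of 2.58 FPKM in the control, 41.9 with DES, 6.82 with calcium and 17.8 with both, and of 3.87 with cadmium and 9.87 with cadmium and DES. Its term was -2.46 ± 0.51 on the log2 scale for calcium (SE, adjusted p = 0.0265) and -2.62 ± 0.43 for cadmium (adjusted p = 0.0222). FOXO1 had a mean of 2.12 FPKM in the control, 9.92 with DES, 6.47 with calcium and 6.77 with both, and of 5.35 with cadmium and 3.85 with cadmium and DES. Its term was -2.04 ± 0.37 for calcium (adjusted p = 0.0172) and -2.58 ± 0.48 for cadmium (adjusted p = 0.0334). FBXO32 had a mean of 3.06 FPKM in the control, 7.43 with DES, 7.01 with calcium and 6.04 with both, and a term of -1.46 ± 0.35 (adjusted p = 0.0427).

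Of the 66 genes, 3 were called for calcium (4.55%, beside 3.63% of all genes) and 2 for cadmium (3.03%, beside 1.18%). FOXO1 kept its call for calcium in all 12 fits that left out a library. The calls were lost in 5 of 12 for SOCS1 with calcium, 6 with cadmium, 7 for FOXO1 with cadmium and 9 for FBXO32, with negative terms throughout. In 10 other settings FBXO32 lost its call in 3 and each of the other 4 cases in 1, with FOXO1 and calcium at an adjusted p up to 0.0968. The counts ran from 0 to 4 for calcium (0.143% to 5.19% of all genes) and 0 to 5 for cadmium (0.0834% to 5.46%) over these settings. Total scaling moved the median of all genes in the cadmium interaction to -0.23. The part of medium and of the 3 h lead of DES cannot be told apart from treatment. Groups of 3 libraries were not tested for outliers.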

How the results depend on the processing

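The count of called members was 0 in every setting for DES with calcium or cadmium against DES and for the cadmium interaction, and for the calcium interaction unless a library was left out. It moved in the other comparisons, and the cause was not tested. For calcium, where it was 0, it was 1 with a pseudocount of 1 (7.67% of all genes), 2 with a mean of at least 2 FPKM (11.5%), 1 with all 7 groups in one fit (5.06%) and 3 with limma-voom (10.6%). For cadmium it was 2 with all 7 groups (6.99% of all genes, where it had been 0.15%) and 1 with limma-voom (3.15%), and for GSK4716 1 with limma-voom (0.586%). For DES, where it was 1, it was 0 with a mean of at least 2 FPKM (33.2%), 3 with total scaling (30.0%), 2 with all 7 groups (27.6%), 0 with the replicate block (21.2%) and 2 with limma-voom (32.3%). Without the filter it was also 1 for DES (2.92%), but this was IRS2 and not IGF1R. For DES and calcium against calcium, where it was 3, it was 0 without the filter (1.71%), 5 with limma-voom (39.2%), 2 with the replicate block (35.1%) and 4 with total scaling (36.1%), which added IRS1. With a mean of at least 2 FPKM it was also 3, of 4 members tested (44.8%), but these were GRB10, IGFBP3 and IRS1. For DES and cadmium against cadmium it was 2 with all 7 groups (37.2%, where it had been 9.89%). The added filter of 10 fragments gave 2 for calcium (10.0%) and 3 for DES (30.0%) with limma, and with limma-voom 3 for calcium (10.8%), 2 for cadmium (4.14%), 1 for GSK4716 (0.575%), 3 for DES (31.1%) and 5 for DES and calcium against calcium (38.1%). Leaving out a library gave 0 to 1 for calcium (0.0477% to 5.16% of all genes), 0 to 1 for cadmium (0.00681% to 10.9%), 0 to 0 for GSK4716 (0% to 0.00681%) and 0 to 2 for DES (13.1% to 34.6%). It gave 1 to 2 for DES and calcium against calcium (22.2% to 29.0%), 0 to 0 for DES and cadmium against cadmium (0% to 7.16%), and 0 to 1 for the calcium interaction (1.23% to 5.65%). INSR, IGF1R and IRS2 have no value at a mean of at least 2 FPKM, and IRS2 has values only without the filter and with that of 10 fragments.

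Signs turned for values that were not called, apart from IGFBP3 with DES as given here. Limma-voom gave INSR 0.000285 for calcium and 0.011 for GSK4716, and IRS1 -0.00025 for cadmium; with the filter of 10 fragments these were 0.000957, 0.0112 and -0.000154. IRS1 with cadmium was -0.00192 by median-ratio and -0.0398 by total scaling. Total scaling gave GRB10 -0.0287 for DES and, against DES, GRB10 -0.0991 and IGF1R -0.0365 with calcium and IGFBP5 -0.0391 with cadmium. With libraries left out, INSR ran from -0.0738 to 0.0649 and IGF1R from -0.349 to 0.000331 for calcium, IRS1 from -0.209 to 0.307 for cadmium, and INSR from -0.0778 to 0.0384 and IGF1R from -0.0114 to 0.256 for GSK4716. For DES, GRB10 ran from -0.0777 to 0.254, IRS1 from -0.311 to 0.171 and IGFBP3 from -1.01 to 0.0531, the lowest being called without control replicate 3. Against DES, GRB10 ran from -0.0312 to 0.131, IGF1R from -0.0631 to 0.319 and IGFBP5 from -0.716 to 0.0215 with calcium, and IGF1R from -0.349 to 0.34, IGFBP3 from -0.917 to 0.242 and IGFBP5 from -0.0119 to 0.419 with cadmium. The IGFBP5 interaction ran from -0.0907 to 0.647 for calcium and from -0.383 to 0.155 for cadmium. The cause was not tested. At 2 to 16 fragments of IRS2 a library without DES, its fold change is limited by depth.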
